A study of Caenorhabditis elegans with 78 samples.

Results

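Regions of the X chromosome that carried the repressive mark H3K9me2 (dimethylated lysine 9 of histone H3) in lin-15B larvae, and seldom in wild type, were examined one by one. Overlapping peaks of 16 H3K9me2 peak lists were merged, which gave 16691 regions. Each was taken as called in a list if any peak of that list touched it over 1 bp or more. A region of X was called gained in lin-15B when at least 3 of 4 lin-15B lists and at most 1 of 4 wild-type lists called it. This held for 467 of the 2875 regions on X (16.2%), and by the same rule for 1313 of all 16691 regions (7.87%). The regions were thus chosen by the H3K9me2 calls of lin-15B and wild type, and the difference between these genotypes is described below without a test.

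The lists came from chromatin immunoprecipitation and sequencing of Caenorhabditis elegans at the L1 stage, the first larval stage, kept unfed for 14 h after bleaching of their mothers. Whole larvae of 4 genotypes were compared: the wild-type strain N2, lin-15B(n744) and, as further mutants, lin-35(n745) together with lin-37(n758), each mutant being 1 allele. Parents lived at 20 °C, or were shifted to 26 °C as L4 larvae so that the L1 progeny hatched at 26 °C. Each genotype had 2 libraries per temperature and mark, for H3K9me2 and for H3K4me3. Peaks were called per library against an input of the same genotype and temperature. Per the labels, the H3K4me3 libraries were made by a different immunoprecipitation method from the H3K9me2 libraries. All wild-type and lin-15B inputs carry the method of H3K9me2.

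H3K9me2 is deposited in C. elegans by the methyltransferase MET-2 and is read by CEC-4, a chromodomain protein that holds marked chromatin at the nuclear envelope. It marks silent, repeat-rich stretches, mostly on chromosome arms, while trimethylated lysine 4 of histone H3 (H3K4me3) marks the promoters of active genes. The X chromosome carries a dosage compensation complex in hermaphrodite somatic cells and is largely silent in the germ line. LIN-15B carries a THAP domain. LIN-35, which is related to the retinoblastoma protein, and LIN-37 both belong to the DREAM complex of repressors. All are products of synMuv B genes, which keep germline genes off in somatic cells.

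Limits of the lists bear on every count below. A list holds no read counts, so the depth behind a peak is unknown, and a region without a peak was not called, which is not to say that the mark was absent. Whole larvae mix all cell types, so the mark in more cells and more of the mark per cell cannot be told apart. The H3K9me2 lists held 7420 to 13766 peaks, and the wild-type, lin-35 and lin-37 lists with more peaks mostly called more of the gained regions. The library of lin-15B at 20 °C, replicate 1, stood apart from the other lin-15B libraries. Its peak names gave a q cutoff of 0.05 where the other 15 gave 0.01, yet it had 8273 peaks against 9855 to 13766. The main counts and shares that rest on it are given with and without it. Nothing in the labels says that the replicates were separate cultures, so the p-values below reflect only how these libraries varied, and that variation may be technical.

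The gained regions were called in nearly full number by 3 lin-15B lists and in a small share by the fourth. Of the 467 regions, lin-15B replicates 1 and 2 called 108 and 464 when grown at 20 °C, and 462 and 455 at 26 °C. The wild-type replicates called 9 and 8 at 20 °C, then 48 and 47 at 26 °C. All 4 lin-15B lists lay above all 4 wild-type lists, a separation that the choice of regions fixes in large part. The wild-type calls were mostly those of 26 °C, where the lists were also longer (9930 and 9331 peaks, against 8319 and 8499 at 20 °C). The part of list length in that difference, and of the limit of 1 wild-type call per region, was not tested.

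**Figure D1:**
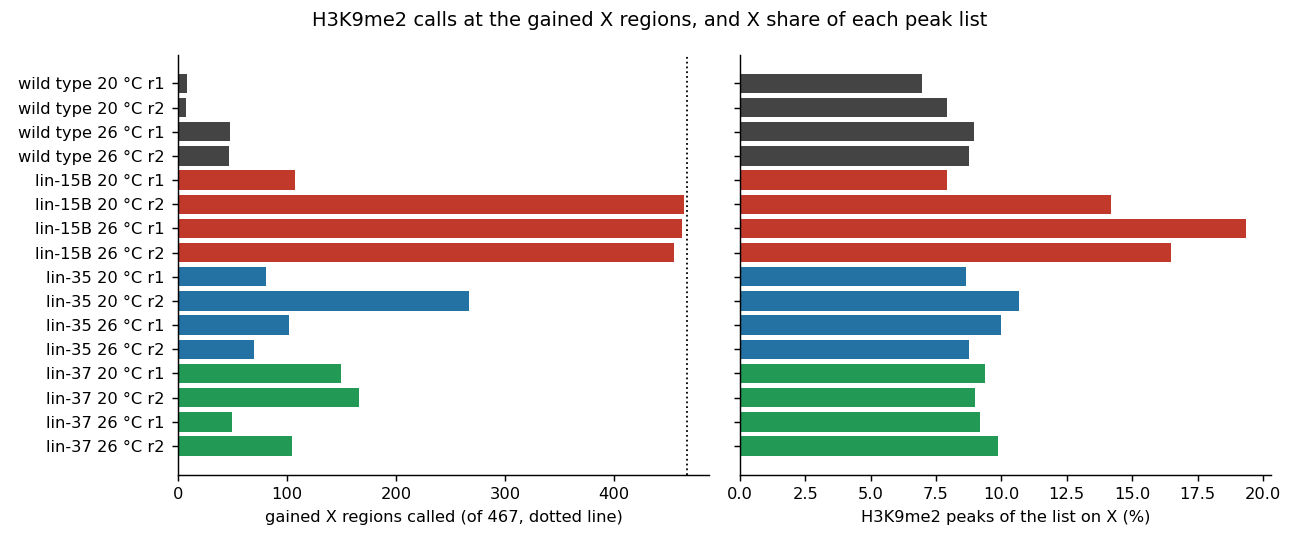
Left, number of the 467 gained X regions called in each of the 16 H3K9me2 lists. Right, percent of each list's H3K9me2 peaks that lie on X. Bars are single libraries, coloured by genotype, and r1 and r2 are replicates 1 and 2. The other 3 lin-15B lists stand at 455 to 464 regions and at 14.2 to 19.4% of peaks on X, and lin-15B 20 °C replicate 1 stands at 108 regions and 7.92%.

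Missing calls in lin-15B were concentrated in that 1 library. Of the 467 regions, 88 had all 4 lin-15B calls and 379 had 3, and in 359 the missing call was that of 20 °C replicate 1. The call missing was that of 20 °C replicate 2 in 3 regions, of 26 °C replicate 1 in 5 and of 26 °C replicate 2 in 12. Both lin-15B lists called 450 regions at 26 °C and 105 at 20 °C, a difference that turns on 20 °C replicate 1. Within 1 temperature, both lin-15B and no wild-type lists called 127 X regions at 20 °C, 93 of them among the 467, and 550 at 26 °C, 356 of them among the 467. Chosen without lin-15B 20 °C replicate 1, at least 2 of the other 3 lin-15B lists called 942 regions, among them all 467, and all 3 called 447.

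Where the other 3 lin-15B lists agreed, lin-15B 20 °C replicate 1 called a smaller share on X than on the autosomes. All 3 of those lists and at most 1 wild-type list called 447 X regions, of which it called 88 (19.7%), and 620 autosomal regions, of which it called 262 (42.3%). This choice uses no call of that library, was made after seeing the data, and was not tested, since it rests on 1 library. Its share of peaks on X was 7.92%, within the wild-type range of 6.97 to 8.96%, against 14.2%, 19.4% and 16.5% in the other lin-15B lists. With this one, 5 H3K9me2 libraries were deposited under the same library tag. Within that set wild type 20 °C called 9 of the gained regions, lin-15B 20 °C 108, lin-15B 26 °C 462, lin-35 20 °C 81 and lin-35 26 °C 102.

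The lin-15B lists other than 20 °C replicate 1 held more X peaks than the wild-type lists, 1792 to 1953 against 580 to 890. At 13766 and 10868 peaks, 20 °C replicate 2 and 26 °C replicate 2 were also longer than every wild-type list. Of similar length, lin-15B 26 °C replicate 1 had 9855 peaks, 1907 of them on X, and wild type 26 °C replicate 1 had 9930 peaks, 890 of them on X. The mean share of peaks on X was 14.5% ± 4.86 (SD, n = 4) in lin-15B and 8.16% ± 0.906 (n = 4) in wild type, and 16.7% ± 2.59 (n = 3) in lin-15B without 20 °C replicate 1. X held 35.6% of all regions gained in lin-15B, and 16.2% of X regions were gained against 6.12% of the 13816 autosomal regions. Chosen without that library, the shares were 32.8% and 11.6%. Among single autosomes the share was highest on V, with 318 of 3318 regions (9.58%). In the other direction, called in at least 3 wild-type and at most 1 lin-15B list, were 43 X regions and 830 autosomal regions. Cut to the 7420 best-scored peaks of each list, X had 176 gained regions (10.0% of 1758) and the autosomes 366 (3.56% of 10284).

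**Figure D2:**
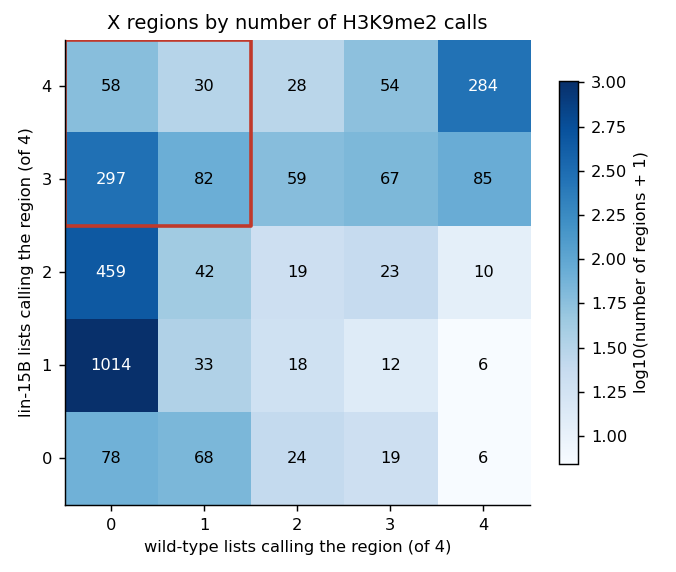
Number of X regions (printed in each cell, with colour on a log10 scale) by the number of wild-type lists (horizontal) and lin-15B lists (vertical) that called H3K9me2 there. The red frame encloses the 467 gained regions, and the cell of 4 and 4 calls holds 284 regions.

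The rule drew its line through a continuous spread of calls. Inside it, 297 regions had 3 lin-15B calls and no wild-type call, 82 had 3 and 1, 58 had 4 and 0, and 30 had 4 and 1. Just outside, 501 X regions had 2 lin-15B calls and at most 1 wild-type call, and 87 had at least 3 lin-15B calls and 2 wild-type calls. The 501 had a median width of 516 bp and the 87 one of 938 bp, against 733 bp for regions with 3 and 0 calls and 1090.5 bp for those with 3 and 1. Among the gained regions 355 had no wild-type call and 112 had 1.

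Gained regions were discrete and mostly short. Their median width was 886 bp, with the middle of the distribution from 516.5 to 1416.5 bp and the extremes at 185 and 8542 bp. X regions with at least 3 wild-type calls had a median of 1077 bp (566 regions), the other X regions together one of 452.5 bp, and autosomal gained regions one of 880.5 bp. In all, the gained X regions spanned 552.5 kb, and 22 exceeded 3000 bp. A region is the union of peaks over 16 lists, so its width grows with the number and length of the peaks that touch it. The stretch under peaks in the regions each list called had a median of 307.5 and 540.5 bp in lin-15B at 20 °C and 662 and 449 bp at 26 °C. In the 8 lin-35 and lin-37 lists this median was 221.5 to 405 bp, and in wild type 171 to 335.5 bp.

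The 5 widest regions show how much the covered length of the same stretch differed between lists. X 5527198 to 5535739 in ce10 coordinates, counted from 1, was the widest at 8542 bp. Lin-15B peaks covered 607 and 8542 bp of it at 20 °C and 5044 and 1987 bp at 26 °C, and no wild-type list had a peak there. Lin-35 peaks covered 694, 4768, 0 and 599 bp, in the order 20 °C replicates 1 and 2, then 26 °C, and lin-37 peaks 2172, 980, 0 and 0 bp. Coverage was greatest in lin-15B 20 °C replicate 2, the longest list.

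A pair of wide neighbours, X 3226880 to 3235176 (8297 bp) and X 3235968 to 3243506 (7539 bp), lay on the left side of X less than 1 kb apart. The first was covered over 956 and 8220 bp in lin-15B at 20 °C and over 4717 and 5411 bp at 26 °C. In lin-35 and lin-37 both neighbours were called at 20 °C in every list and at 26 °C in none. At the first, lin-35 20 °C peaks covered 961 and 6650 bp and lin-37 20 °C peaks 1868 and 3253 bp. Of the remaining wide regions, X 5100889 to 5106858 (5970 bp) was called in 4 lin-15B, 3 lin-35, 3 lin-37 and no wild-type lists. X 12744984 to 12750118 (5135 bp) was called in 3 lin-15B, 4 lin-35, 3 lin-37 and 1 wild-type lists, with 146 bp covered in wild type 26 °C replicate 1.

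The gained regions lay along the whole of X and were denser on its left side. The left 30% of X held 207 (44.3%, 38.9 per Mb), the middle 40% held 144 (30.8%, 20.3 per Mb) and the right 30% held 116 (24.8%, 21.8 per Mb). X regions with at least 3 wild-type calls were placed toward both ends, with 38.5% left, 18% in the middle and 43.5% right. All X regions had 37.6%, 29.9% and 32.5%. The first 4 Mb of X held 187 gained regions (40.04%), against 32.2% of all X regions and 35.5% of those with wild-type H3K9me2. No test of placement was made, since neighbouring regions are not separate samples.

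**Figure D3:**
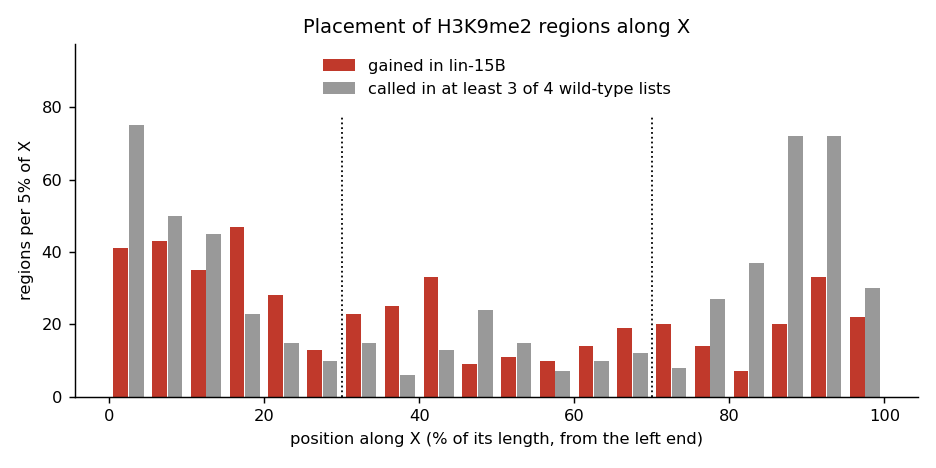
Number of gained X regions (red) and of X regions called in at least 3 of 4 wild-type lists (grey) in each 5% of the length of X, from the left end. Dotted lines mark 30% and 70%. The left 30% holds 207 gained regions and the right 30% holds 116, while the grey bars are high at both ends.

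The left zone was also the densest in a stricter and a looser choice of regions, and in all X regions. Among the 58 regions called in all 4 lin-15B and no wild-type lists, which need a call in that library, 70.7% lay in the left zone, 13.8% in the middle and 15.5% on the right, or 7.71, 1.13 and 1.69 per Mb. Among the 942 regions chosen without it, 39.7% lay left, 34.1% in the middle and 26.2% right, or 70.4, 45.3 and 46.5 per Mb. Per Mb the left zone was highest in all 3 choices, and the middle and right zones were close in the 467 and the 942. All X regions had 203, 121 and 176 per Mb. Of these 37.6% lay left, so the 39.7% of the looser choice was close to the share of X as a whole.

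By bins of 1 Mb, the gained regions were most numerous from 1 to 2 Mb (52), from 2 to 3 Mb (46) and from 3 to 4 Mb (45). Over those bins the number of wild-type regions was 64, 41 and 17. As a share of all regions in a bin, the bin from 7 to 8 Mb was highest, with 35 of 137 regions (25.5%) and 14 wild-type regions. The lowest share was from 14 to 15 Mb, with 9 of 146 regions (6.16%), a bin with 48 wild-type regions.

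In distance to the H3K9me2 of wild type the gained regions were close to X regions as a whole. The median distance to the nearest other region with at least 3 wild-type calls was 12729 bp, against 10947 bp for all X regions, and 16.3% lay within 2000 bp of one (all X regions 16%). Other X regions with at most 1 wild-type call had a median of 13534.5 bp, with 12.5% within 2000 bp. The median distance to the nearest other gained region was 8395 bp. Joined at gaps of at most 5000 bp, 175 formed 75 chains and 292 stood alone. The largest chain had 6 gained regions over 14774 bp, at X 407841 to 422614, and no region with wild-type H3K9me2 lay inside it. Of the chains of 4 gained regions, 1 lay near the left end at X 634800 to 647849. The others lay inside the 7 to 8 Mb bin, at X 7214667 to 7225578, X 7268782 to 7281723 and X 7455879 to 7470198.

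Gained regions ranked below the H3K9me2 regions that X carried in wild type. The rank percentile of a region is the position of its best-scored peak among the authors' scores of that list, from 0 to 100 at the highest score. In the lin-15B lists the gained regions called had a median rank percentile of 27 and 34.6 at 20 °C, and of 31.9 and 38.1 at 26 °C. X regions with at least 3 wild-type calls had 62.1 and 77.3, and 71.2 and 73.8, in the same lists. In wild type the few gained regions called had medians of 13.8 and 8.57 at 20 °C and of 13.4 and 17.3 at 26 °C. Gained regions could have at most 1 wild-type call and the others had at least 3. The choice of regions thus favours a low rank of the gained ones in the wild-type lists. Lists of different length set these ranks on different scales, so they are read within a list.

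**Figure D4:**
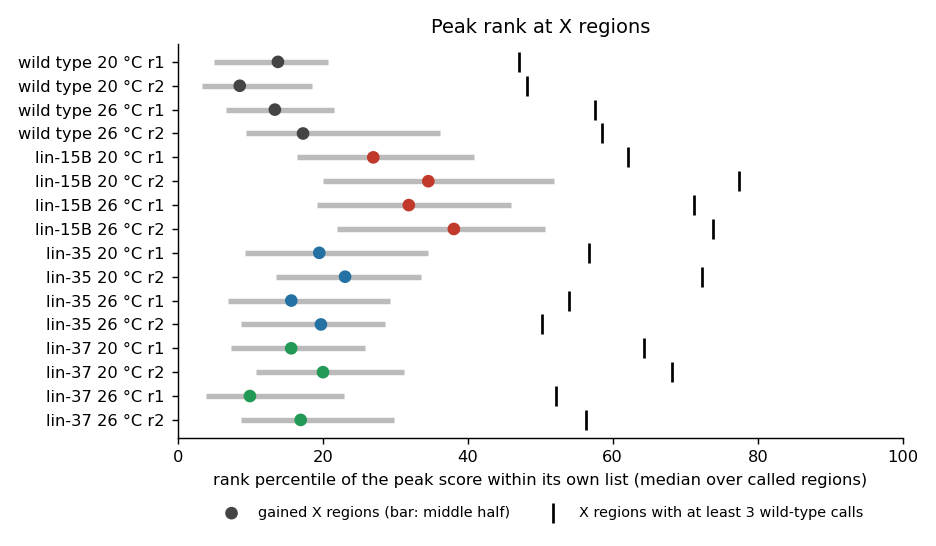
Rank percentile of the peak score within its own list, per H3K9me2 library, where 100 is the highest score. Points are the median over gained X regions called in that list, grey bars span the first to the third quartile, and black ticks are the median over X regions with at least 3 wild-type calls. The points lie at 27 to 38.1 in lin-15B and left of the tick in every list. In the wild-type lists the choice of regions favours this placement.

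The highest-ranked regions with 4 lin-15B and no wild-type calls were led by X 17126466 to 17127798 (1333 bp, near the right end). Its rank percentile was 69.8 and 77.7 in lin-15B at 20 °C and 76 and 49.99 at 26 °C, a mean of 68.4 ± 12.7 (SD, n = 4). Lin-35 called it at 20 °C only, at 32.2 and 59.6. Lin-37 called it at 50.6 and 37.9 at 20 °C and at 14.4 in 26 °C replicate 2. It lay 697 bp from a region with wild-type H3K9me2, and no H3K4me3 list had a peak on it.

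X 2267946 to 2268381 (436 bp) came next, with a mean of 60.6 ± 8.01 (n = 4) over lin-15B values of 49.8, 59.8, 68.6 and 64.1. Only lin-35 20 °C replicate 2 and lin-37 26 °C replicate 2 called it among the other mutants, at 20.8 and 11.4. It overlapped an H3K4me3 peak in 2 wild-type, 3 lin-15B, 4 lin-35 and 4 lin-37 lists. Both marks were called in separate libraries of whole larvae, so they need not lie in the same cells.

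The other 8 regions of this ranking had mean lin-15B rank percentiles from 48.6 to 57.2. X 1339422 to 1340750 (1329 bp) stood at 23.5, 70.2, 63.6 and 71.6 in lin-15B, lowest in 20 °C replicate 1. X 5100889 to 5106858, among the 5 widest, stood at 59.9, 63.1, 38.1 and 51.9. X 17674359 to 17677599 (3241 bp) lay at the right end of X and was called in 4 lin-35 and 3 lin-37 lists. Neighbours X 7583768 to 7588138 (4371 bp) and X 7590881 to 7594363 (3483 bp) both belonged to the ranking. The remaining regions were X 528634 to 529486, X 255770 to 256524 and X 10945651 to 10947503, called in 3, 1 and 3 of the 8 lin-35 and lin-37 lists.

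The lin-35 and lin-37 lists, whose calls were not part of the rule although their peaks were merged into the regions, called fewer of them than the lin-15B lists other than 20 °C replicate 1. Lin-35 replicates 1 and 2 called 81 and 267 at 20 °C and 102 and 70 at 26 °C, and lin-37 called 150 and 166 at 20 °C and 50 and 105 at 26 °C. Of the gained regions the lin-35 lists called 17.3%, 57.2%, 21.8% and 14.99%, against 25.3%, 32.2%, 25.5% and 20.7% of other X regions. The lin-37 lists called 32.1%, 35.5%, 10.7% and 22.5%, against 27.9%, 27.5%, 25.04% and 26.7%. These other regions include those with wild-type calls. The share was thus higher among gained regions in lin-35 20 °C replicate 2 and both lin-37 20 °C lists, and lower in the rest. The lowest lin-37 count (50) was close to those of wild type at 26 °C. Lin-35 20 °C replicate 2 called more than the other lin-35 lists (57.2% of the regions) and was the longest of them, at 10730 peaks. Means were 130 ± 92.3 (SD, n = 4) in lin-35 and 117.8 ± 52.0 (n = 4) in lin-37, against 372.2 ± 176 in lin-15B and 28.0 ± 22.5 in wild type. The wild-type lists that chose the regions are shared by all these comparisons.

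At least 3 of 4 lin-35 lists called 64 gained regions (13.7%). The same held for 20.7% of all X regions, most of which also had wild-type calls, and for 1.18% of the 1694 other X regions with at most 1 wild-type call. At least 3 of 4 lin-37 lists called 56 (12.0%), against 21.7% of all X regions and 0.590% of those other regions. The share was thus above that of other X regions low in wild type and below that of X as a whole. Whether regions that pass in several lists of 1 genotype pass more easily in any list was not tested.

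Calls in all the mutants were seen at a subset. At least 3 of 4 lists of both lin-35 and lin-37 called 30 regions, and at least 3 of 4 lists of either called 90. No lin-35 or lin-37 list called 131 (28.1%), all 8 called 3, and 280 (60.0%) had at most 1 call in each. These counts over both mutants are not given here for all X regions. Taken alone, lin-35 had no call at 36.8% of the gained regions, against 57.2% of all X regions. Among the other X regions with at most 1 wild-type call it was 82.3%. For lin-37 these shares were 43.5%, 61.0% and 88.4%. By the same rule of at least 3 mutant and at most 1 wild-type calls, lin-35 gained 84 X regions (2.92% of X regions) and lin-37 gained 66 (2.30%). Of the 84, 64 were among the lin-15B regions (76.2% of the lin-35 list, 13.7% of the lin-15B list). Of the 66, 56 were (84.8% and 12.0%). The lin-15B regions were 16.2% of all X regions, and all these choices share the wild-type lists.

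Gained regions that were called in lin-35 and lin-37 tended to be the wider and higher-ranked ones, and for width this is partly built in. Across the 467 regions, Spearman's rho between the number of lin-35 and lin-37 calls and the mean lin-15B rank percentile was 0.51 (0.52 without 20 °C replicate 1), and between that number and width 0.35. These values are a description, since all regions share the same libraries. In the 117 narrowest regions (185 to 516 bp) the mean number of lin-35 calls was 0.684 of 4 and of lin-37 calls 0.701. In the 117 widest regions (1420 to 8542 bp) they were 1.68 and 1.56. Wild-type calls moved the same way, from 0.128 to 0.385, and lin-15B 20 °C replicate 1 called 9.40% of the narrowest and 40.2% of the widest set. The rule used the calls of both, and their peaks also entered the width.

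The regions called in all 8 lin-35 and lin-37 lists numbered 3. At X 7583768 to 7588138 no wild-type list had a peak, and lin-15B rank percentiles stood at 57.6, 36.2, 51.1 and 56.0, with 20 °C first. Lin-35 stood at 22.5, 16.4, 39.7 and 9.39 there and lin-37 at 10.5, 26.5, 5.04 and 15.9. Peaks covered 1168 to 4371 bp in lin-15B, 274 to 1343 bp in lin-35 and 167 to 444 bp in lin-37, so the lin-15B peaks were the longer ones in all lists but lin-35 26 °C replicate 1, which exceeded the lowest lin-15B value. X 1343849 to 1346052 (2204 bp) had 1 wild-type call (26 °C replicate 1, rank percentile 28.7), and lin-15B stood at 21.5, 46.0, 44.9 and 57.2. X 3077740 to 3078034 (295 bp) was called in 3 lin-15B lists, at 73.3, 22 and 7.30, and not in 26 °C replicate 1.

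Regions called in no lin-35 or lin-37 list were led by short ones. X 10128183 to 10128481 (299 bp) had rank percentiles of 68.6, 68.1 and 55.3 in lin-15B 20 °C replicate 2 and 26 °C replicates 1 and 2. X 7895268 to 7895758 (491 bp) had 67.7, 56.5 and 54.5 in the same lists, and X 2461398 to 2462148 (751 bp) had 44, 56.4 and 59.3. X 696304 to 696700 (397 bp) and X 2977934 to 2978289 (356 bp) followed, with means of 49.8 ± 21.3 and 46.2 ± 7.51 (SD, n = 3). None of these 5 regions was called in lin-15B 20 °C replicate 1, in any wild-type list or in any H3K4me3 list.

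Calls at the gained regions were fewer at 26 °C than at 20 °C in lin-37. Both lin-37 lists of 20 °C (150 and 166) called more gained regions than those of 26 °C (50 and 105). Both wild-type lists of 26 °C called more than those of 20 °C. The rule allowed at most 1 wild-type call per region, so the wild-type counts are what it left and are not set against lin-37. In lin-35 the ranges overlapped. Both lists called 87 regions in lin-37 at 20 °C and 28 at 26 °C, and 70 and 37 in lin-35. In lin-37 these were 18.6% and 5.996% of the gained regions, against 23.3% and 19.5% of all X regions. In lin-35 they were 14.99% and 7.92%, against 21.6% and 15.9%. With 2 libraries against 2 the smallest possible two-sided exact p is 0.333, so temperature was not tested. The lin-37 lists were longer at 20 °C (9658 and 10649 peaks) than at 26 °C (7778 and 8383), and the part of list length was not tested. The autosomal gained regions had a wider gap between temperatures, with 62.5% and 65.8% called in lin-37 at 20 °C and 7.68% and 18% at 26 °C.

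The share of H3K9me2 peaks that lay on X was close in lin-35 and lin-37, with a difference below the spread of their libraries. It was 8.66% and 10.7% at 20 °C and 9.99% and 8.75% at 26 °C in lin-35, and 9.36%, 9.0%, 9.18% and 9.87% in lin-37. The means were 9.51% ± 0.972 and 9.35% ± 0.374 (SD, n = 4 each), a difference of 0.162 percentage points (two-sided exact permutation test, p = 0.771, adjusted p = 0.771 over 4 tests of X shares). The lin-35 values overlapped the upper part of the wild-type range, 6.97 to 8.96%, and the lin-37 values lay above it. Neither was tested against wild type, whose lists helped choose the regions.

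H3K4me3 was found on a minority of the gained regions, and at about the same number in every genotype. At least 3 of 4 wild-type lists called it at 37 regions (7.92%, against 7.55% of all X regions). In lin-15B it was 43 (9.21%, against 7.97%), in lin-35 37 (7.92%, against 7.62%) and in lin-37 44 (9.42%, against 8.21%). The counts of wild type and lin-15B were thus close. Of the 467 regions, 354 (75.8%) had no H3K4me3 peak in any of 16 lists, 113 (24.2%, against 19.2% of all X regions) had one in at least 1 list, and 23 (4.93%, against 4.17% of all X regions) had one in all 16. Regions with H3K4me3 in any list were wider, with a median of 1179 bp against 820 bp, and the part of width in that overlap was not tested.

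Per library, H3K4me3 overlapped 39 and 54 gained regions in wild type at 20 °C and 70 and 34 at 26 °C. In lin-15B it was 43 and 82 at 20 °C and 34 and 65 at 26 °C, so the ranges of these genotypes overlapped. Lin-37 had 63, 49, 43 and 55. Lin-35 had 92 and 43 at 20 °C and 38 and 41 at 26 °C, with 20 °C replicate 1 apart from the rest. That library overlapped 19.7% of gained and 13.3% of other X regions. At each temperature 1 list of every genotype came from the largest set of H3K4me3 libraries with the same library tag. The list of that set had the higher count in wild type, lin-15B and lin-35 and the lower one in lin-37. The part of the tag was not tested. H3K4me3 lists held 5421 to 8412 peaks, and the longest, lin-15B 20 °C replicate 2, was second to lin-35 20 °C replicate 1 (7279 peaks) in this count. Within 2000 bp of a region, at least 3 lists had H3K4me3 at 84 regions in wild type (17.99%, against 19.4% of all X regions) and at 90 in lin-15B (19.3%, against 19.8%). The median distance to the nearest H3K4me3 region with at least 3 wild-type calls was 9823 bp (all X regions 8884 bp).

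**Figure D5:**
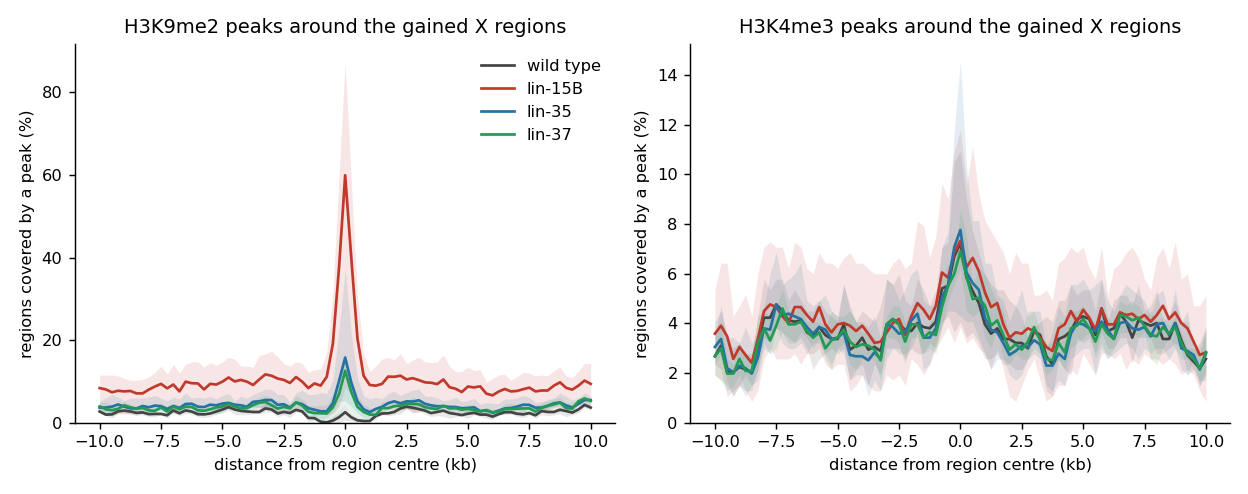
Percent of the 467 gained X regions covered by an H3K9me2 peak (left) or an H3K4me3 peak (right) at each distance from the region centre, in kb. Lines are the mean of 4 libraries per genotype, and shading spans the lowest to the highest library. At the centre H3K9me2 covers 60.0% of regions for lin-15B, 15.8% for lin-35, 12.6% for lin-37 and 2.57% for wild type, while H3K4me3 covers 6.91 to 7.76% in all 4.

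Around the centres the H3K9me2 call fell off quickly. In lin-15B the mean share of regions covered was 60.0% at the centre (8.57% to 87.4% over libraries, and a mean of 77.1% without 20 °C replicate 1), 19.2% and 20.4% at 500 bp to the left and right, and 9.96% and 8.78% at 5000 bp. In wild type it was 2.57% at the centre and 3.21% and 2.19% at 5000 bp. The flanks had a higher mean in lin-15B too, but the lowest lin-15B library had 3.64% and 2.57% at 5000 bp. Wild-type libraries ran there from 2.36% to 4.28% and from 1.07% to 3.43%. All of X had 389 to 1546 kb under H3K9me2 peaks in the lin-15B lists and 341 to 501 kb in wild type. The part of that difference in the flanks was not tested. Lin-35 had 15.8% at the centre (5.35% to 37.0%) and lin-37 12.6% (4.93% to 16.7%), with 4.66% and 3.96% at 5000 bp to the left. H3K4me3 had a low maximum at the centre in each genotype, 7.23% in wild type and 7.33% in lin-15B, against 3.37% and 3.96% at 5000 bp to the left.

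H3K4me3 was called in all 16 lists at 23 regions, the first 5 by lin-15B H3K9me2 rank being X 4523779 to 4525790, X 4960242 to 4963431, X 6091337 to 6092735, X 16613438 to 16614579 and X 2318086 to 2320261. None of them was called for H3K9me2 in lin-15B 20 °C replicate 1, and each had the other 3 lin-15B calls. The authors' fold enrichment of H3K4me3 at X 4960242 to 4963431 was 13.5, 11.9, 10.2 and 13.5 in wild type and 18.6, 21.8, 19.4 and 17.8 in lin-15B, in the order 20 °C replicates 1 and 2, then 26 °C. At X 4523779 to 4525790 it was 6.27, 4.83, 6.15 and 6.38 in wild type and 3.65, 4.65, 5.56 and 5.59 in lin-15B. All 4 lin-15B folds lay above the wild-type folds at the first of these regions, and the groups overlapped at the second. They overlapped at the other 3 regions too, with wild-type folds of 11.4 to 23.4 and lin-15B folds of 11.8 to 22.1 at X 6091337 to 6092735. These folds also depend on the depth and input of each library, and no test was made on them.

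Some of those 5 regions, picked out after their values were seen, also had highly ranked H3K9me2 peaks in lin-35. At X 6091337 to 6092735 lin-15B stood at 36.5, 55.2 and 67.5, and lin-35 at 63.1 and 74.9 at 20 °C and 38.0 in 26 °C replicate 1. At X 4523779 to 4525790 lin-35 stood at 67.0, 70.4 and 44 in the same 3 lists, and lin-15B at 60.5, 47.9 and 54.1. Lin-35 26 °C replicate 2 called neither.

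Few gained regions changed in H3K4me3 by the rule of at least 3 of 4 against at most 1 of 4 lists. In lin-15B 2 gained H3K4me3, as did 0.765% of all X regions, and 1 lost it, as did 0.139%. X 643496 to 645817 (2322 bp) had H3K4me3 in no wild-type list, in 3 lin-15B lists at a fold of 2.00, 2.32 and 1.88, and in all lin-35 and lin-37 lists at 1.96 to 3.77. X 6744640 to 6746485 (1846 bp) had it in no wild-type list and in lin-15B 20 °C replicate 2 and 26 °C replicates 1 and 2, at 21.9, 3.51 and 19.9, and once in lin-37, at 11.5. X 2316883 to 2317171 (289 bp) had it in 3 wild-type lists and 1 lin-15B list, and it adjoins X 2318086 to 2320261, where all 16 lists had H3K4me3.

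The share of H3K4me3 peaks on X, a measure of the whole chromosome in the mark that did not choose the regions, did not pass the test in any mutant. Wild type had 15%, 15.7%, 15.2% and 14.4%, and lin-15B had 13.8% and 16.3% at 20 °C and 12.8% and 14.0% at 26 °C. The means were 15.1% ± 0.537 and 14.2% ± 1.49 (SD, n = 4 each). The difference of −0.851 percentage points had p = 0.314 in a two-sided exact permutation test and an adjusted p of 0.724 over 4 tests. For lin-35 the difference was −0.692 (exact permutation p = 0.429, adjusted p = 0.724) and for lin-37 −0.338 (exact permutation p = 0.543, adjusted p = 0.724). With 4 libraries against 4 the smallest p is 0.0286. Without lin-15B 20 °C replicate 2, the library with the highest X share, the lin-15B difference was −1.55 with an exact permutation p of 0.0286, the smallest possible, and an adjusted p of 0.114, which did not pass.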

How the data were processed

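Chromatin immunoprecipitation libraries of L1 larvae were used for H3K9me2 and H3K4me3, 32 lists of the 78 samples in the series; the other marks and the inputs were not analysed here. Per the submitters' processing notes, the tools were Bowtie 1.1.2 and MACS2, whose version is not given in the sources used here, with genome build ce10. Each list was called for 1 library against an input, per the labels. The deposited H3K4me3 lists hold a fold enrichment (a ratio) per peak, with its p and q on a −log10 scale. The deposited H3K9me2 lists hold 3 score columns of unsettled meaning, and the authors' score served only for ranks inside 1 list. Scores and folds are the authors' own values.

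Peaks were merged into regions, called at an overlap of 1 bp, and counted with Python 3.11.15, pandas 2.3.3, numpy 2.4.6, scipy 1.17.1 and matplotlib 3.10.9. The counting and the permutation test were first checked on simulated lists. X was taken to end at the highest peak end, and zones were its outer 30% on each side and the middle 40%. Shares of peaks on X were compared by exact permutation with Benjamini-Hochberg adjustment over 4 tests.

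Regions and lists were chosen with earlier results of these data known. Named regions followed a rule: the 10 highest in mean lin-15B rank percentile with 4 lin-15B and no wild-type calls, the 5 highest called in none and in all of the lin-35 and lin-37 lists, the 5 widest, the 5 with most H3K4me3 lists, those changed in H3K4me3, and the 3 fullest bins of 1 Mb; chains and the bins with the highest and lowest shares were chosen after their values were seen. A genome or gene annotation of ce10 was not used here, so no region was assigned to a gene and no sequence is given. Alternatives were another overlap (200 bp), 8 lists merged, stricter calls, equal peak numbers, 1 kb bins, single temperatures, leaving out each library, and choosing regions without lin-15B 20 °C replicate 1.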

Additional observations from a re-analysis of the deposited data

Results flagged for a closer look

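Each group of 4 libraries was searched for a value far from the rest, by Dixon's ratio of the gap to the whole range at the 95% critical value for 4 samples. Of 20 groups checked 3 passed. Chance passes about 1 in 20 of separate groups, but these groups share libraries and regions. In 1 of the 3 the calls also chose the regions, so the number that passed is not weighed against chance. The number of gained X regions called for H3K9me2 was 108 in lin-15B 20 °C replicate 1, with the nearest lin-15B library at 455 (ratio 0.975). These calls also chose the regions: a region that this library missed had to be called in the other 3, so the rule itself widens the gap, and the ratio is only a description. Its list had 8273 peaks and the q cutoff of 0.05, and its part in the low count was not tested. The number was 267 in lin-35 20 °C replicate 2, with the nearest lin-35 library at 102 (ratio 0.838) and the longest lin-35 list, 10730 peaks. The number of gained regions overlapping H3K4me3 was 92 in lin-35 20 °C replicate 1, with the nearest at 43 (ratio 0.907). That list had 7279 peaks against 5441 to 6318 in the other lin-35 lists. It overlapped 19.7% of gained and 13.3% of other X regions. It also belonged to the 8 H3K4me3 libraries deposited under the same library tag. The parts of list length and of the tag were not tested.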

How the results depend on the processing

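The number of gained X regions moved most with the strictness of the calls and with how much of each list was used. It was 58 with 4 of 4 against 0 of 4 calls, 176 with equal peak numbers, 293 without the lowest-scored 25% of each list, 914 as 1 kb bins, 127 from 20 °C alone, and 481 to 942 with each library left out in turn, the highest without lin-15B 20 °C replicate 1, where 2 of 3 lin-15B calls sufficed. It was 376 with an overlap of 200 bp, 468 with only the 8 lists of lin-15B and wild type merged, 550 from 26 °C alone and 447 in all 3 other lin-15B lists. Of the 176 regions, 118 overlapped one of the 467. Gained regions called in at least 3 of 4 lin-35 lists (64) were 47 with an overlap of 200 bp, 45 of 176 (25.6%, against 28.5% of all X regions) with equal peak numbers, and 72 to 121 with a lin-35 library left out, at least 2 calls of 3 then sufficing by the same rule. For lin-37 (56) the count was 26 with an overlap of 200 bp, 36 of 176 (20.5%, against 28.8%) with equal peak numbers, and 81 to 123 with a lin-37 library left out. Chosen without lin-15B 20 °C replicate 1, 74 and 63 of 942 regions were so called, a choice made after seeing the data. Regions with H3K4me3 in at least 3 of 4 lin-15B lists (43) were 90 within 2000 bp, 79 of the 942 regions, and 43 to 63 with a library left out. The median width was 1402 bp in the 58 and 667.5 bp in the 942.

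With libraries left out, the difference in H3K4me3 share on X ran from −1.55 to −0.372 percentage points for lin-15B, from −1.19 to −0.210 for lin-35 and from −0.727 to 0.0359 for lin-37. The lin-37 difference reversed without lin-37 26 °C replicate 1. The H3K9me2 share of lin-35 minus lin-37 ran from −0.219 to 0.445 and reversed without lin-35 20 °C replicate 2. Replicate numbers did not pair the libraries. Same-numbered deviations from group means correlated at −0.175 to 0.207 for H3K9me2 (2 of 12 pairs over 0.1). For H3K4me3 the range was −0.471 to 0.329 (3 of 12). Library tags lay across replicate numbers, so these values do not address pairing by tag, which was not tested. With a replicate block the differences remained −0.851, −0.692, −0.338 and 0.162, with exact permutation p of 0.375, 0.375, 0.625 and 0.875. For H3K4me3, 8 libraries were deposited under the same library tag, across replicate numbers. Within that set the differences from wild type were −0.297 for lin-15B, −1.04 for lin-35 and −1.31 for lin-37. The part of the tag in these shares was not tested. In all, 73 alternative values of these counts and differences kept direction and call, with counts within 1.5 times, 15 counts moved by more and 2 differences reversed. Apart from lin-15B 20 °C replicate 2 in H3K4me3, no library left out brought an X share to an exact p under 0.05. The cause of each change was not tested. The lists give no depth, so calls near a list's threshold cannot be weighed.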
